A study of Mus musculus with 54 samples.

Results

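Rbm3 and Cirbp are the mouse genes of the cold-inducible RNA-binding proteins, and they were followed here through every way in which adult mouse kidney was prepared for RNA sequencing in this study. The 2 genes were chosen by name, out of 33126 genes listed for at least 1 library, and both were listed in all 39 libraries made with the 10x Genomics droplet method and in all 15 bulk RNA-seq libraries.

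Both genes encode small proteins with a single RNA recognition motif followed by a glycine-rich tail. They bind messenger RNA, move between nucleus and cytoplasm, and are known for rising when mammalian cells are cooled mildly below body temperature and for falling when cells are heated, which is the reverse of the heat shock chaperones. RBM3 is known for supporting translation in the cold and for protecting neurons, and CIRBP for its link to the circadian clock and, when it is released from cells, for its role as a danger signal in inflammation.

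The study compared ways of taking kidney apart and storing it, in 18 groups of 3 libraries each. Kidneys of 19-week-old male AFAPIL.1DEL C57BL/6J mice of a single litter were dissociated either cold, on ice with a Bacillus licheniformis protease, or warm, at 37 °C with a commercial enzyme kit, and each suspension was run on 10x fresh, after 6 weeks of cryopreservation or after 3 months in methanol, with bulk RNA-seq of the fresh suspensions alongside. Kidneys of 18-week-old male Balb/c mice of a single litter gave fresh cold-dissociated cells, nuclei and bulk RNA-seq of intact tissue. Kidneys of wild type Balb/c females, 15 weeks old and former breeders, gave fresh cold-dissociated cells, the same suspensions after 2 weeks of cryopreservation, nuclei by 3 protocols, and bulk RNA-seq of intact kidney and of cold-dissociated suspensions. Nuclei came from flash-frozen kidney and were either sorted by flow after 3 washes at 500 g (3x500g), sorted after 1 wash at 2000 g (1x2000g), or passed through a sucrose gradient without sorting (sucrose). None of the mice had been treated. The C57BL/6J and Balb/c male 10x libraries used chemistry version 2 and the Balb/c female ones version 3, so that sex, age, chemistry and the time of the experiment cannot be told apart between the Balb/c experiments.

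Bulk libraries held 2326998 to 31093949 counts, 10x cell libraries 983522 to 27869324 unique molecular identifiers (UMIs, which tag captured RNA molecules) in 782 to 7928 barcodes, and nuclei libraries 7629138 to 35170947 UMIs in 6971 to 9308 barcodes. None of the 54 pairs of replicates held identical values, and at most 1.78% of the barcodes of a library recurred in another library of the same experiment. The markers of proximal tubule, loop of Henle and collecting duct, Slc34a1, Umod and Aqp2, were present in every group. Replicates were separate kidneys, and all p-values measure the spread between these libraries. Levels are given as counts per 1000000 (CPM). In the 10x libraries these are UMIs per 1000000 UMIs of the 11261 genes listed for every 10x library. In the bulk libraries they are read counts per 1000000 counts. An exception among the 10x levels is named where it is given.

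Rbm3 (ENSMUSG00000031167.16) lies on the minus strand of chromosome X at 8138975 to 8145880 in GRCm38, and its exons cover 4698 bases and its introns 2208 bases. Cirbp (ENSMUSG00000045193.13) lies on the plus strand of chromosome 10 at 80165985 to 80172786, with 2604 bases of exon and 4198 bases of intron, so that Cirbp has the larger intronic part. An antisense gene, Rbm3os, overlaps the start of Rbm3. The 27 libraries that list Rbm3os gave it at most 26 counts, or at most 6.75% of the Rbm3 counts of the same library, and whether the counting used strand is not given in the sources used here. A processed copy of Rbm3, Rbm3-ps, exists elsewhere in the genome. How reads that match both copies were counted is not given in the sources used here.

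The promoter of Cirbp is shown because it holds the mild cold response element, the short motif first described in this gene. RefSeq (GRCm38.p6) gives 2 start site windows for Cirbp on the plus strand, chr10:80167589-80167888 and chr10:80167921-80168220, each running from 250 bases before to 50 bases after a start site. In the first window the motif TCCCCGCC, searched on both strands, stands with its first base at -247 from the start site. In the line below, which covers chr10:80167589-80167618 on the plus strand, the capitals mark the motif.
Cirbp promoter: ctgTCCCCGCCtcctagtcgctagcgggcg
The second Cirbp window does not hold these letters. They were found in 1768 of 32851 promoter windows of the same length (5.38%) on either strand. A heat shock element, searched as GAANNTTC, was found in 2582 windows (7.86%) and in neither Cirbp window.

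In bulk RNA-seq of the C57BL/6J suspensions, neither gene was called different between cold and warm dissociation. Rbm3 measured 53.3, 55.6 and 47.3 CPM in the cold and 58.4, 56.0 and 55.7 in the warm suspensions. The 3 warm libraries were above the 3 cold ones, though the nearest values were 55.6 and 55.7. The log2 fold change of warm against cold was 0.10 (95% interval -0.07 to 0.27, adjusted p = 0.52 by edgeR's quasi-likelihood test), which the spread between libraries does not separate from 0. Cirbp measured 23.3, 23.3 and 14.6 in the cold and 24.1, 23.2 and 21.3 in the warm suspensions. Those ranges overlapped, cold library 3 being the low value, and the log2 fold change was 0.13 (-0.18 to 0.45, adjusted p = 0.67), or -0.03 without that library. Of 14102 genes tested, 5.42% were called higher and 3.26% lower in warm suspensions, a call being an adjusted p under 0.05.

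Intact kidney and cold-dissociated suspension could be compared in the Balb/c female mice. Rbm3 measured 56.4, 43.0 and 47.5 CPM in intact kidney and 66.1, 46.3 and 49.9 in suspensions. Cirbp measured 76.2, 67.2 and 62.7 in intact kidney and 96.0, 65.3 and 69.5 in suspensions. For both genes the ranges overlapped and library 1 of the suspensions was highest. The log2 fold change of intact against suspension was -0.13 (-0.45 to 0.19, adjusted p = 0.59) for Rbm3 and -0.15 (-0.46 to 0.17, adjusted p = 0.52) for Cirbp, and both moved to 0.04 without that suspension library. The background was 12.1% of 16538 genes called higher and 7.91% called lower. In Balb/c male intact kidney Rbm3 measured 37.2, 58.0 and 40.3 and Cirbp 48.1, 86.4 and 49.7, with library 2 highest for both. In bulk tissue fewer cells of a type and less RNA per cell cannot be told apart.

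Between genes, levels were compared per length, as CPM per kilobase of exon. Rbm3 stood at 11.1 ± 0.910 (SD, n = 3) in cold and 12.1 ± 0.314 in warm C57BL/6J suspensions, and Cirbp at 7.84 ± 1.93 and 8.78 ± 0.554. In Balb/c intact kidney Rbm3 was at 9.61 ± 2.39 (male) and 10.4 ± 1.46 (female), close to its level in C57BL/6J, whereas Cirbp was at 23.6 ± 8.31 and 26.4 ± 2.64, and at 29.5 ± 6.40 in Balb/c female suspensions beside 11.5 ± 2.25 for Rbm3. In bulk the order of the genes was therefore opposite in the experiments. The ratio of Rbm3 to Cirbp per length was 1.46 and 1.38 in cold and warm C57BL/6J suspensions and 0.417, 0.395 and 0.391 in Balb/c male intact kidney, female intact kidney and female suspensions. The C57BL/6J and Balb/c male libraries were both from males and both ribosomal RNA depleted, and differed in strain, age, read length and in being suspension or intact tissue, which cannot be told apart. The female libraries also differed in sex and in poly(A) selection. In fresh cold-dissociated 10x cells the ratio of Rbm3 to Cirbp UMIs did not follow the bulk order. It was 1.23 ± 0.0725 in C57BL/6J, 0.978 ± 0.0576 in Balb/c male and 2.02 ± 0.111 in Balb/c female cells.

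**Figure D1:**
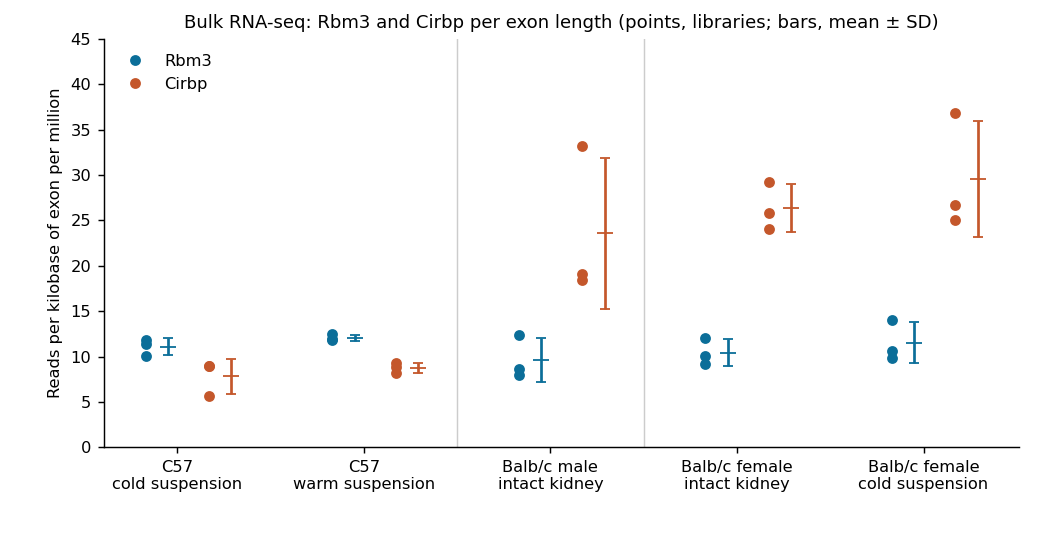
CPM per kilobase of exon (y axis) of Rbm3 and Cirbp in the 5 bulk groups (x axis), with 1 point per library and bars for the mean ± SD of 3 libraries. Rbm3 stays between 9.61 and 12.1 on average in all groups, and Cirbp is below it in the C57BL/6J groups and above it in the Balb/c groups.

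In the 10x libraries of fresh C57BL/6J cells, neither gene was called different between warm and cold dissociation. Rbm3 measured 167, 178 and 116 CPM in the cold and 179, 147 and 170 in the warm libraries, and Cirbp 128, 153 and 94.6 in the cold and 124, 97.1 and 97.3 in the warm libraries. The ranges overlapped for both genes, and cold library 3 was the lowest of the cold libraries for both. Warm against cold, the log2 fold change was 0.25 (-0.09 to 0.58, adjusted p = 0.29) for Rbm3 and -0.10 (-0.47 to 0.28, adjusted p = 0.74) for Cirbp. Of 12061 genes, 7.86% were called higher and 7.07% lower. Higher calls were 52.6% of all calls, and 39.1% where libraries were compared on total counts with no scaling factor. The ratio of Rbm3 to Cirbp UMIs was 1.16 to 1.31 in the cold and 1.45 to 1.74 in the warm libraries, with no overlap. Cold and warm ranges of the ratio did overlap in cryopreserved cells (1.41 to 2.02 and 1.33 to 1.63). They overlapped too in methanol-fixed cells (0.918 to 1.50 and 1.10 to 1.29) and in bulk suspensions (2.28 to 3.24 and 2.42 to 2.62).

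The same comparison was made after storage. In cryopreserved cells Rbm3 measured 473, 421 and 344 (cold) and 354, 409 and 366 (warm), a log2 fold change of -0.11 (-0.40 to 0.19, adjusted p = 0.68), and Cirbp 334, 270 and 170 (cold) and 267, 251 and 233 (warm), a log2 fold change of -0.02 (-0.49 to 0.45, adjusted p = 0.97). In methanol-fixed cells Rbm3 measured 137, 161 and 115 (cold) and 175, 140 and 113 (warm), a log2 fold change of 0.15 (-0.21 to 0.51, adjusted p = 0.71), and Cirbp 141, 175 and 76.7 (cold) and 147, 127 and 87.5 (warm), a log2 fold change of 0.01 (-0.60 to 0.61, adjusted p = 0.99). All 4 pairs of ranges overlapped. The share of genes called higher and lower was 4% and 2.68% of 10086 in cryopreserved cells and 1.15% and 0.83% of 9996 in methanol-fixed cells. Higher calls made up 59.9% of the calls in cryopreserved cells, and 41.3% with no scaling factor.

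A test of the difference between these warm against cold changes gave no call for either gene. For cryopreserved minus fresh cells the difference was -0.41 log2 units (-0.86 to 0.03, adjusted p = 0.23) for Rbm3 and 0.02 (-0.61 to 0.65, adjusted p = 1.00) for Cirbp, where 6.32% of 11749 genes were called. For methanol-fixed minus fresh cells it was -0.10 (-0.60 to 0.41, adjusted p = 0.94) for Rbm3 and 0.10 (-0.64 to 0.85, adjusted p = 0.97) for Cirbp, where edgeR called 0% of 12001 genes and 1205 had an unadjusted p under 0.05. These fits treat aliquots of 1 suspension as independent. With the suspension as a replicate block the differences were -0.43 (adjusted p = 0.219) and 0.043 (adjusted p = 0.977) for cryopreserved and -0.11 (adjusted p = 0.827) and 0.13 (adjusted p = 0.809) for methanol-fixed cells, and calls over all genes went from 742 to 93 and from 0 to 13.

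The heat shock chaperones, which fold proteins in heated cells, were measured in the same libraries. Markers of several cell types also differed between these fresh cells. Podocyte markers summed to 813 to 1346 in cold and 53.5 to 68.7 in warm libraries. Immune markers summed to 7558 to 8669 and 4522 to 5110, and proximal tubule markers to 6955 to 7937 and 8568 to 8714. Their part in the chaperone values was not tested. The warm against cold test was repeated for Rbm3 and Cirbp without proximal tubule-like and unnamed barcodes. In fresh cells they changed by 0.36 (-0.11 to 0.83, adjusted p = 0.402) and -0.23 (-0.61 to 0.15, adjusted p = 0.514). In cryopreserved cells the changes were -0.09 (adjusted p = 0.72) and 0.02 (adjusted p = 0.975). In methanol-fixed cells they were 0.39 (0.002 to 0.78, adjusted p = 0.366) and 0.03 (adjusted p = 0.989). In bulk suspensions 8 of 17 chaperones and co-chaperones were called, each higher after warm dissociation, and in fresh cells 9 of 17, again each higher, where 5.42% and 7.86% of all genes were called higher. Hspa1a, the inducible Hsp70, went from 5.97 ± 1.46 CPM in cold to 165 ± 61.1 in warm bulk suspensions (log2 fold change 4.73, adjusted p = 3.09e-07), and from 10.1 ± 0.900 to 544 ± 179 CPM in fresh cells (5.89, adjusted p = 9.63e-06). Its partner Hspa1b rose by 4.07 and 3.06 log2 units, the co-chaperone Dnajb1 by 1.29 and 1.95, and the small heat shock protein Hspb1 by 1.95 and 1.21, while the constitutive Hspa8 measured -0.02 (adjusted p = 0.95) and 0.28 (adjusted p = 0.27). The list's median log2 fold change was 0.15 in bulk and 0.40 in fresh cells, beside -0.01 and -0.03 over all genes. In methanol-fixed cells 3 of 17 were called higher, beside 1.15% of all genes, among them Hspa1a at 5.34, and in cryopreserved cells 4 of 17, beside 4%, led by Hspb1 at 1.65. Hspa1a measured 2133 ± 733 in cold and 4095 ± 389.8 in warm cryopreserved cells, a log2 fold change of 0.95 (adjusted p = 0.057). In the main fits the 95% intervals of Rbm3 and Cirbp in these 4 comparisons reached at most 0.61 log2 units from 0. Without proximal tubule-like and unnamed barcodes the interval of Rbm3 reached 0.83 in fresh cells.

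In all 3 suspension types both genes were called higher in the sums of cryopreserved libraries than in those of fresh ones. The makeup of the cells differed as well, as given below. After cold dissociation of C57BL/6J kidney, Rbm3 went from 154 ± 33.3 in fresh to 412 ± 65.1 CPM in cryopreserved cells and Cirbp from 125 ± 29.4 to 258 ± 82.7. After warm dissociation, Rbm3 went from 165 ± 16.5 to 377 ± 28.6 and Cirbp from 106 ± 15.3 to 250 ± 17.2. In each of these 4 cases every cryopreserved library was above every fresh one. The share of all genes that separated in this way was not counted. The log2 fold change of Rbm3 was 1.26 (0.86 to 1.67, adjusted p = 0.000691) after cold and 0.87 (0.64 to 1.10, adjusted p = 0.000216) after warm dissociation, and that of Cirbp 0.88 (0.31 to 1.44, adjusted p = 0.0177) and 0.92 (0.65 to 1.19, adjusted p = 0.00037), or between 1.83-fold and 2.40-fold. Many genes moved with them. Of 11392 genes tested after cold dissociation 21.8% were called higher and 28.9% lower, and of 10778 after warm dissociation 25.8% and 33.9%.

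In Balb/c female cells Rbm3 measured 196, 112 and 144 CPM fresh and 302, 267 and 256 cryopreserved, and Cirbp 91.6, 58.1 and 72.3 fresh and 174, 129 and 163 cryopreserved. Again no cryopreserved library fell within the fresh range, and the share of all genes that separated so was not counted. The log2 fold change was 0.47 (0.07 to 0.88, adjusted p = 0.0445) for Rbm3 and 0.68 (0.31 to 1.05, adjusted p = 0.00685) for Cirbp, while 28.9% of 11947 genes were called higher and 29.1% lower. The labels do not tie a cryopreserved library to a fresh one here, so the aliquots were fitted as independent. The Rbm3 call did not hold without fresh library 2 or 3 or without any 1 of the cryopreserved libraries (log2 fold change 0.30 to 0.54, adjusted p up to 0.139), and the Cirbp call in cold-dissociated C57BL/6J cells did not hold without fresh library 1 or 3 or without cryopreserved library 1 or 2 (0.67 to 0.90, adjusted p up to 0.0691).

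The makeup of the cells changed with cryopreservation at the same time. Summed over 12 proximal tubule markers, the fresh cold C57BL/6J libraries held 6955 to 7937 CPM and the cryopreserved ones 13.4 to 58.3, with Slc5a12, Slc5a2, Slc22a6, Slc22a8, Slc7a13 and Cubn at 0. In warm-dissociated cells the sums were 8568 to 8714 fresh and 46.0 to 57.4 cryopreserved, and in Balb/c female cells 5532 to 6796 (11 markers listed) and 834 to 1732 (10 listed). Markers of immune and endothelial cells were higher at the same time. The sum of 47 immune markers went from 7558 to 8669 up to 22410 to 32500 after cold dissociation, from 4522 to 5110 up to 15200 to 23440 after warm dissociation and from 1658 to 3322 up to 7014 to 9175 in Balb/c female cells, though not all of these genes were listed in each group. The sum of 9 endothelial markers was 735 to 879 in fresh and 2257 to 2886 in cryopreserved cold C57BL/6J libraries. Mitochondrial genes took 26.1% to 31.7% of the UMIs in fresh and 13.6% to 15.4% in cryopreserved cold-dissociated C57BL/6J cells. In warm-dissociated cells the ranges overlapped, at 20.2% to 25.9% fresh and 17.1% to 22.6% cryopreserved, and in Balb/c female cells the order was opposite, at 31.3% to 33.6% fresh and 34.6% to 34.9% cryopreserved.

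Both genes were tested again with the barcodes of proximal tubule-like and unnamed clusters left out. In cold-dissociated C57BL/6J cells Rbm3 then measured 226, 192 and 101 CPM fresh and 389, 353 and 289 cryopreserved, a log2 fold change of 0.97 (adjusted p = 0.0174), while Cirbp measured 187, 190 and 112 fresh and 274, 220 and 143 cryopreserved, a log2 fold change of 0.34 that was no longer called (adjusted p = 0.345). In warm-dissociated cells both stayed called, at 0.50 (adjusted p = 0.0235) for Rbm3 and 0.58 (adjusted p = 0.0142) for Cirbp. In Balb/c female cells Cirbp stayed called at 0.52 (adjusted p = 0.0209) and Rbm3 did not at 0.40 (adjusted p = 0.079). Each of the 6 changes was smaller than over all barcodes. The makeup of the remaining barcodes still differed, and its part was not tested. After warm dissociation principal cell-like barcodes were 47 in fresh and 457 in cryopreserved cells, and connecting tubule-like ones 403 and 76. After cold dissociation B cell-like barcodes were 271 and 402, and ascending loop of Henle-like ones 349 and 55. The scale also mattered, since leaving out the scaling factor raised the median of all genes by 0.46, 0.42 and 0.36 log2 units in the cold, warm and Balb/c female comparisons. Rbm3 then changed by 1.71, 1.28 and 0.83 and Cirbp by 1.33, 1.32 and 1.03. The share of higher calls went from 43.0% to 67.3%, from 43.25% to 62.5% and from 49.9% to 76.8%.

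Methanol fixation gave no call for either gene. After cold dissociation Rbm3 was at 138 ± 22.8 and Cirbp at 131 ± 50.1 CPM in methanol-fixed cells, log2 fold changes of -0.02 (-0.40 to 0.35, adjusted p = 0.94) and 0.19 (-0.40 to 0.78, adjusted p = 0.63) against fresh. After warm dissociation they were at 143 ± 30.9 and 120 ± 30.1, log2 fold changes of -0.13 (-0.47 to 0.21, adjusted p = 0.61) and 0.29 (-0.13 to 0.70, adjusted p = 0.34). The ranges of fresh and fixed libraries overlapped in all 4 cases. Without warm methanol library 3, which held 88 Rbm3 and 68 Cirbp UMIs, Cirbp passed the threshold at 0.44 (adjusted p = 0.0497). After cold dissociation 14.3% of 11910 genes were called higher and 13.6% lower, and after warm dissociation 7.53% and 9.77% of 10826. After cold dissociation the sums of proximal tubule markers overlapped, at 6955 to 7937 in fresh and 5867 to 7063 in methanol-fixed libraries, and after warm dissociation every methanol-fixed library (6420 to 7483) was below every fresh one (8568 to 8714). The sum of immune markers was 7558 to 8669 in fresh and 4794 to 5093 in methanol-fixed cells after cold dissociation, without overlap, and 4522 to 5110 and 3882 to 4976 after warm dissociation. Without proximal tubule-like and unnamed barcodes neither gene was called. After cold dissociation Rbm3 changed by -0.02 (adjusted p = 0.967) and Cirbp by 0.16 (adjusted p = 0.641). After warm dissociation they changed by -0.03 (adjusted p = 0.992) and 0.37 (adjusted p = 0.16). The part of the immune share in these values was not tested.

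Within the cold-dissociated C57BL/6J suspensions, the barcode prefixes tie the fresh, cryopreserved and methanol-fixed libraries of a number to the same kidney. Library 3 was the lowest for both genes in each of the 3 forms, at 116, 344 and 115 CPM for Rbm3 and 94.6, 170 and 76.7 for Cirbp.

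**Figure D2:**
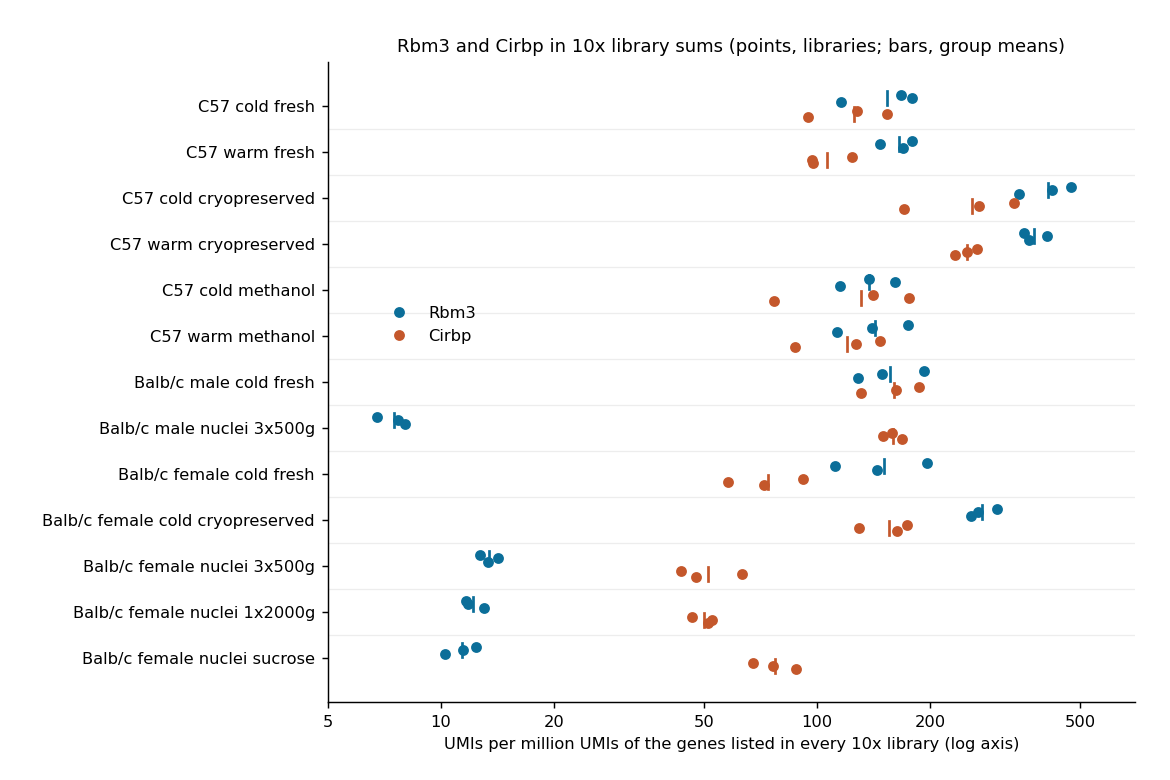
CPM over the genes listed in every 10x library (x axis, log scale) of Rbm3 and Cirbp in the 13 groups of 10x libraries (y axis), with 1 point per library and bars for the group means. Within each experiment the means of cryopreserved cells lie to the right of those of fresh and methanol-fixed cells for both genes, and nuclei sit far to the left for Rbm3 only, at 6.76 to 14.2.

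Nuclei and cells differed most for Rbm3. In Balb/c male kidney Rbm3 measured 193, 149 and 129 CPM in cells and 6.76, 7.71 and 8.05 in 3x500g nuclei, from 55 to 59 UMIs in each nuclei library. Cirbp measured 187, 162 and 131 in cells and 159, 149 and 169 in nuclei, so that its nuclei lay within the range of the cells. The log2 fold change of nuclei against cells was -4.62 (-5.04 to -4.20, adjusted p = 5.03e-07) for Rbm3 and -0.25 (-0.58 to 0.08, adjusted p = 0.138) for Cirbp, beside a median of 0.84 over all 14027 genes, of which 53.6% were called higher and 27.6% lower. Without cells library 3 Cirbp was called at -0.43 (adjusted p = 0.0107).

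In Balb/c female kidney Rbm3 measured 196, 112 and 144 in cells and 12.7, 14.2 and 13.3 in 3x500g nuclei, a log2 fold change of -3.97 (-4.37 to -3.56, adjusted p = 7.14e-08). Cirbp measured 91.6, 58.1 and 72.3 in cells and 43.5, 63.0 and 47.8 in nuclei, a log2 fold change of -1.01 (-1.36 to -0.65, adjusted p = 0.000266), although its ranges overlapped on the scale of CPM. Here 43.8% of 13762 genes were called higher and 41% lower, with a median of 0.10. With no scaling factor that median rose by 0.44 in the female and 0.17 in the male comparison, and the changes were -3.54 and -4.45 for Rbm3 and -0.57 and -0.07 for Cirbp. In both experiments Rbm3 thus fell in nuclei, and Cirbp fell in the female nuclei. Markers of other cells moved with the preparation. The immune markers summed to 2411 to 7898 in male cells and 545 to 734 in male nuclei, and to 1658 to 3322 and 272 to 400 in the female ones, and 9 podocyte markers to 1235 to 1519 and 108 to 162 in male and 739 to 1239 and 229 to 357 in female cells and nuclei. The proximal tubule markers summed to 5834 to 7043 in male cells and 12950 to 13610 in male nuclei, and to 5532 to 6796 and 9285 to 9525 in the female ones.

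The ratio of the genes moved with this. Rbm3 to Cirbp UMIs stood at 0.978 ± 0.0576 in Balb/c male cells and 0.0473 ± 0.00455 in nuclei, and at 2.02 ± 0.111 in Balb/c female cells and 0.266 ± 0.0357 in 3x500g nuclei. Reads in nuclei were counted over introns and exons and in cells over exons alone, and Cirbp has 4198 bases of intron beside 2208 in Rbm3. The part of this counting in the difference between the genes was not tested.

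The nuclei against cells change of Cirbp differed between the female and male experiments by -0.88 log2 units (-1.37 to -0.38, adjusted p = 0.00582), in a test that called 54.6% of 13430 genes and had a median difference of -0.75 over all of them, so that Cirbp moved about as the median gene did. That of Rbm3 differed by 0.54 (-0.04 to 1.12, adjusted p = 0.104). Both calls depended on the scaling. With DESeq2-type size factors (RLE) the difference was -0.45 (adjusted p = 0.13) for Cirbp and 0.97 (adjusted p = 0.0138) for Rbm3, and with no scaling factor -0.51 (adjusted p = 0.11) and 0.90 (adjusted p = 0.0256). The median over all genes was then -0.33 and -0.39. Leaving out any 1 of the 6 nuclei libraries likewise ended the Cirbp call (-0.51 to -0.29, adjusted p up to 0.363) and brought the Rbm3 call (0.98 to 1.08, adjusted p down to 0.0172). Leaving out male cells library 3 or female cells library 1 also brought the Rbm3 call, at 0.68 (adjusted p = 0.0377) and 0.75 (adjusted p = 0.0105). The direction was the same for both genes in all of these settings.

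Among the Balb/c female nuclei, the sucrose gradient gave the most Cirbp. Cirbp measured 67.6, 76.4 and 87.7 CPM in sucrose nuclei, above every library of the 3x500g (43.5 to 63.0) and 1x2000g nuclei (46.6 to 52.6). The log2 fold change was 0.59 (0.29 to 0.88, adjusted p = 0.00736) against 3x500g, where 23.9% of 17304 genes were called higher and 21.4% lower, and 0.66 (0.45 to 0.88, adjusted p = 0.00569) against 1x2000g, where 7.87% of 17500 were higher and 5.21% lower. Higher calls were 60.2% of the latter, and 45.8% with no scaling factor. Of 12 related proteins with RNA recognition motifs, 7 were called higher and 3 lower against 3x500g, and 5 higher and 0 lower against 1x2000g. Their median log2 fold changes were 0.36 and 0.27, beside 0.03 and -0.01 over all genes. Rbm3 was not called, at 12.4, 11.5 and 10.3 in sucrose, 12.7, 14.2 and 13.3 in 3x500g and 11.7, 11.8 and 13.0 in 1x2000g nuclei. Its log2 fold change of sucrose against 3x500g was -0.24 (-0.45 to -0.03, adjusted p = 0.0619), which passed the threshold without sucrose library 1 (-0.31, adjusted p = 0.0427), and against 1x2000g -0.05 (-0.27 to 0.16, adjusted p = 0.74). Between 1x2000g and 3x500g nuclei the changes were -0.16 (-0.33 to 0.01, adjusted p = 0.14) for Rbm3 and -0.05 (-0.31 to 0.20, adjusted p = 0.74) for Cirbp, beside 19.5% of 17449 genes called higher and 15.4% lower. The ratio of Rbm3 to Cirbp was 0.15 ± 0.0332 in sucrose and 0.243 ± 0.0158 in 1x2000g nuclei.

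The 3 nuclei preparations also differed in other cells' markers. The 47 immune markers (39 listed) summed to 272 to 400 in 3x500g, 486 to 565 in 1x2000g and 581 to 583 CPM in sucrose nuclei, and the 9 endothelial markers to 473 to 710, 861 to 1180 and 1057 to 1069. The 12 proximal tubule markers summed to 9285 to 9525, 8348 to 8489 and 7416 to 8295. Their part in the Cirbp levels was not tested.

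**Figure D3:**
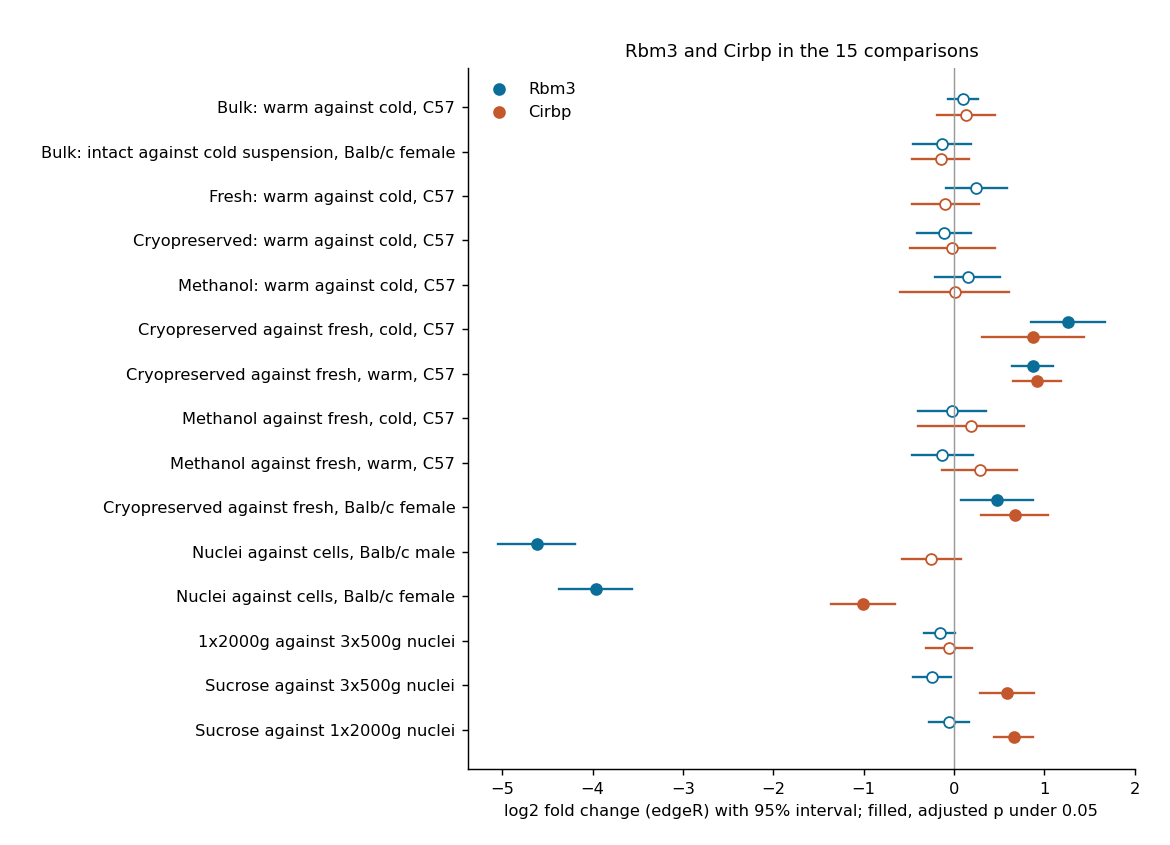
Log2 fold changes of Rbm3 and Cirbp by edgeR (x axis, points) with 95% intervals (lines) in the 15 comparisons (y axis), where filled points mark an adjusted p under 0.05. The filled points are those of cryopreservation for both genes, nuclei against cells for Rbm3 in both sexes and for Cirbp in females, and sucrose nuclei for Cirbp.

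Cell classes were rebuilt by clustering barcodes without Rbm3, Cirbp and the other temperature genes, and were named from markers. A class is called X-like for that reason, and differences between classes are given as a description. Between 24.6% and 28.2% of barcodes per set of libraries stayed unnamed. In fresh cold-dissociated C57BL/6J cells Rbm3 was highest in some immune classes. It was at 556 ± 173 CPM in dendritic cell-like, 533 ± 315 in T cell-like and 430 ± 209 in B cell-like barcodes. It was in the middle in podocyte-like (256), endothelial-like (251) and mesangial and mural-like barcodes (240). It was lowest in proximal tubule-like (99.3 ± 9.88) and distal convoluted tubule-like barcodes (89.0 ± 14.3). Neighbours in the order overlapped widely.

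Cirbp ran through the same classes in a somewhat different order. B cell-like (468 ± 125), NK cell-like (452) and T cell-like barcodes (434 ± 103) led, followed by mesangial and mural-like (387) and podocyte-like (304 ± 12.4) barcodes, and proximal tubule-like barcodes were last at 52.2 ± 10.4. Dendritic cell-like barcodes, highest in Rbm3, stood at 155. The collecting duct's principal cell-like barcodes held more Cirbp (279) than Rbm3 (137).

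NK cell-like barcodes led for Rbm3 in both Balb/c experiments, while macrophage-like barcodes were in the middle. In Balb/c male cells Rbm3 was highest in NK cell-like (646 ± 18.7, 2 libraries) and lowest in connecting tubule-like barcodes (69.9 ± 11.6), and Cirbp highest in mesangial and mural-like (541 ± 181) and lowest in proximal tubule-like barcodes (77.4 ± 4.79). In Balb/c female cells Rbm3 was highest in NK cell-like (694 ± 54.8, 2 libraries) and T cell-like (678 ± 144) and lowest in distal convoluted tubule-like barcodes (83.4 ± 9.78), and Cirbp highest in principal cell-like (207 ± 2.65) and lowest in distal convoluted tubule-like barcodes (35.1 ± 14.5). Small classes rest on few UMIs, 14 and 29 in all for Rbm3 in the male and female NK cell-like barcodes.

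**Figure D4:**
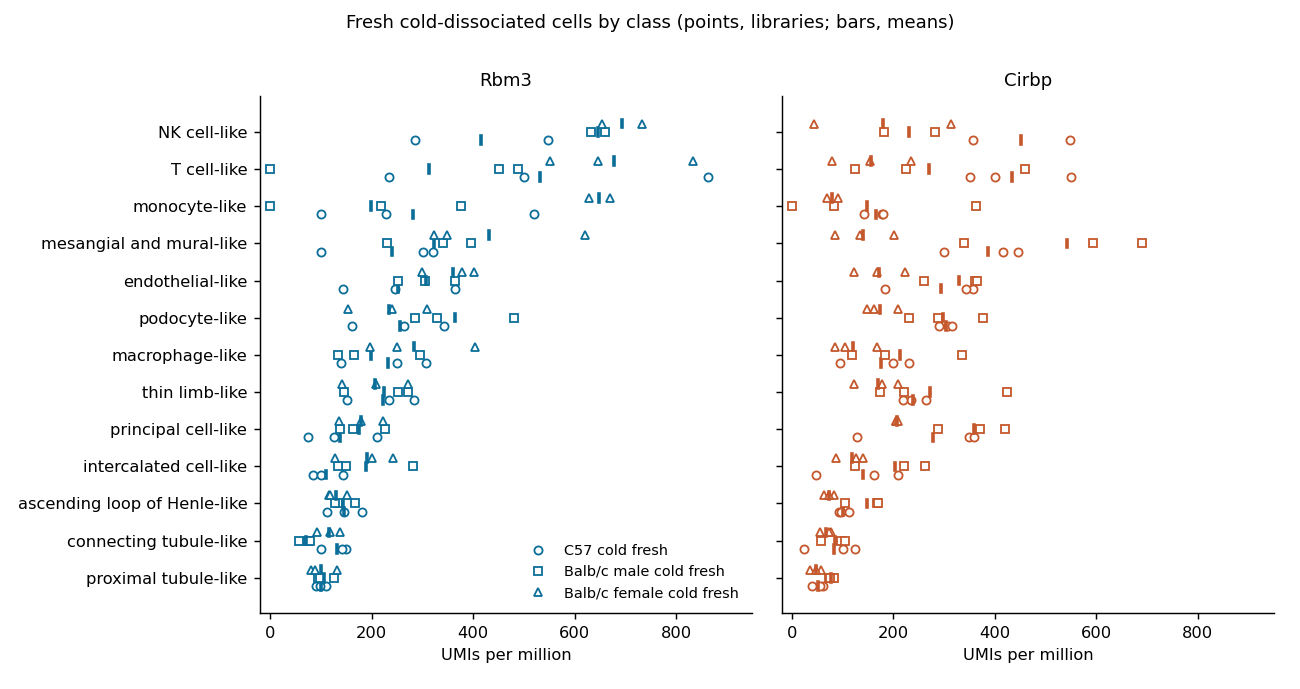
CPM of Rbm3 and Cirbp (x axes) by cell class (y axis) in fresh cold-dissociated cells of the C57BL/6J, Balb/c male and Balb/c female experiments, with points for libraries and bars for means. NK cell-like and T cell-like barcodes are at the high end for Rbm3, macrophage-like barcodes are in the middle, and proximal tubule-like barcodes are at the low end for both genes, at 99.3, 106 and 101 for Rbm3 and 52.2, 77.4 and 46.5 for Cirbp.

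In nuclei Rbm3 was low in every class. It lay between 0 and 11.3 CPM over the classes of Balb/c male nuclei and between 4.90 and 20.9 in Balb/c female nuclei, the male values resting on 55 to 59 Rbm3 UMIs per library over all classes. Cells and nuclei were clustered separately, so that a class joins different clusters of the same name. Against cells of a class of the same name, Rbm3 was called lower in all 6 classes tested in the male experiment (median -4.47, from -5.63 in endothelial-like to -4.04 in ascending loop of Henle-like barcodes) and in all 11 in the female one (median -4.06, from -5.62 in podocyte-like to -2.85 in distal convoluted tubule-like barcodes). Over all classes and genes 43% of 36806 tests were called higher and 31% lower in the male experiment, and 40.9% and 39.4% of 85575 in the female one.

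Cirbp in nuclei was called in different directions in different classes, and the difference between classes was not tested. In the male experiment it was called lower in endothelial-like (-0.95), intercalated cell-like (-0.68) and principal cell-like barcodes (-1.12), where principal cell-like levels were 359 ± 66.0 CPM in cells and 197 ± 6.36 in nuclei, and Cirbp had 2 calls in place of 4 without nuclei library 2. It was called higher in proximal tubule-like barcodes at 0.63 (0.31 to 0.95, adjusted p = 0.00142), from 77.4 ± 4.79 in cells to 166 ± 13.1 in nuclei, next to a median of 0.59 over all genes of that class. In the female experiment it was called lower in 10 of 11 classes, with a median of -1.59, and proximal tubule-like barcodes among them changed by -0.44 (-0.73 to -0.15, adjusted p = 0.00826). In distal convoluted tubule-like barcodes, the exception, the change was -0.05 (-0.62 to 0.52). The female minus male difference was negative for Cirbp in the 7 classes in which it was tested in both experiments (median -0.68, -1.14 to -0.24). It was called in proximal tubule-like barcodes at -1.14 (-1.58 to -0.71, adjusted p = 0.00017), where 45.1% of 10503 genes were called and the median difference over all genes was -0.58. That median was also negative in endothelial-like (-0.47), thin limb-like (-0.45), intercalated cell-like (-0.33), ascending loop of Henle-like (-0.22) and principal cell-like barcodes (-0.10). In podocyte-like barcodes it was 0.22. For Rbm3 the female minus male difference was positive in 5 of 6 classes (median 0.74), at 0.72 in proximal tubule-like barcodes (adjusted p = 0.0606). Some classes passed the filter only when the experiments were fitted together. They gave -1.87 for Cirbp in macrophage-like barcodes (adjusted p = 0.0628), beside a median of -1.30 over all genes. For Rbm3 they gave 1.43 and 1.00 in macrophage-like and thin limb-like barcodes.

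Within classes the median change with cryopreservation was smaller than that of the library sums, and most classes were not called. In cold-dissociated C57BL/6J cells Rbm3 was positive in 13 of 14 classes (median 0.63, -0.16 to 1.04), with 7 at an unadjusted p under 0.05 and 1 called, B cell-like barcodes at 0.86 (726 against 430 CPM, adjusted p = 0.0456). The number of calls was 4 without fresh library 1 and 0 without fresh library 3 or any 1 of the cryopreserved libraries. Cirbp was positive in 9 of 13 classes with a median of 0.13, and edgeR called 0, with 0 at an unadjusted p under 0.05. Here 6.82% of 28234 class tests were called in either direction. Cryopreserved proximal tubule-like barcodes, 7 in all against 4627 fresh ones, were too few for a test.

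After warm dissociation Rbm3 was called in macrophage-like barcodes at 0.68 (428 against 302 CPM, adjusted p = 0.029), with a median of 0.35 over 10 classes. Cirbp was called in ascending loop of Henle-like barcodes at 1.03 (196 against 104, adjusted p = 0.012) and connecting tubule-like barcodes at 1.73 (290 against 94.9, adjusted p = 0.014), with a median of 0.29 over 11 classes, and 8.92% of 18585 class tests were called. The Rbm3 call was lost without fresh library 2 or 3 or cryopreserved library 1 or 2, and Cirbp had 1 call without fresh library 2 or 3 or cryopreserved library 2 and 0 without cryopreserved library 1. The macrophage-like barcodes came mostly from different clusters, cluster 24 holding 72% of the cryopreserved and cluster 15 holding 64.9% of the fresh ones. In Balb/c female cells the median was 0.04 over 14 classes for Rbm3 and 0.28 over 12 for Cirbp, edgeR called 0 for each, 1 and 2 classes had an unadjusted p under 0.05, and 4.24% of 64918 tests were called.

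**Figure D5:**
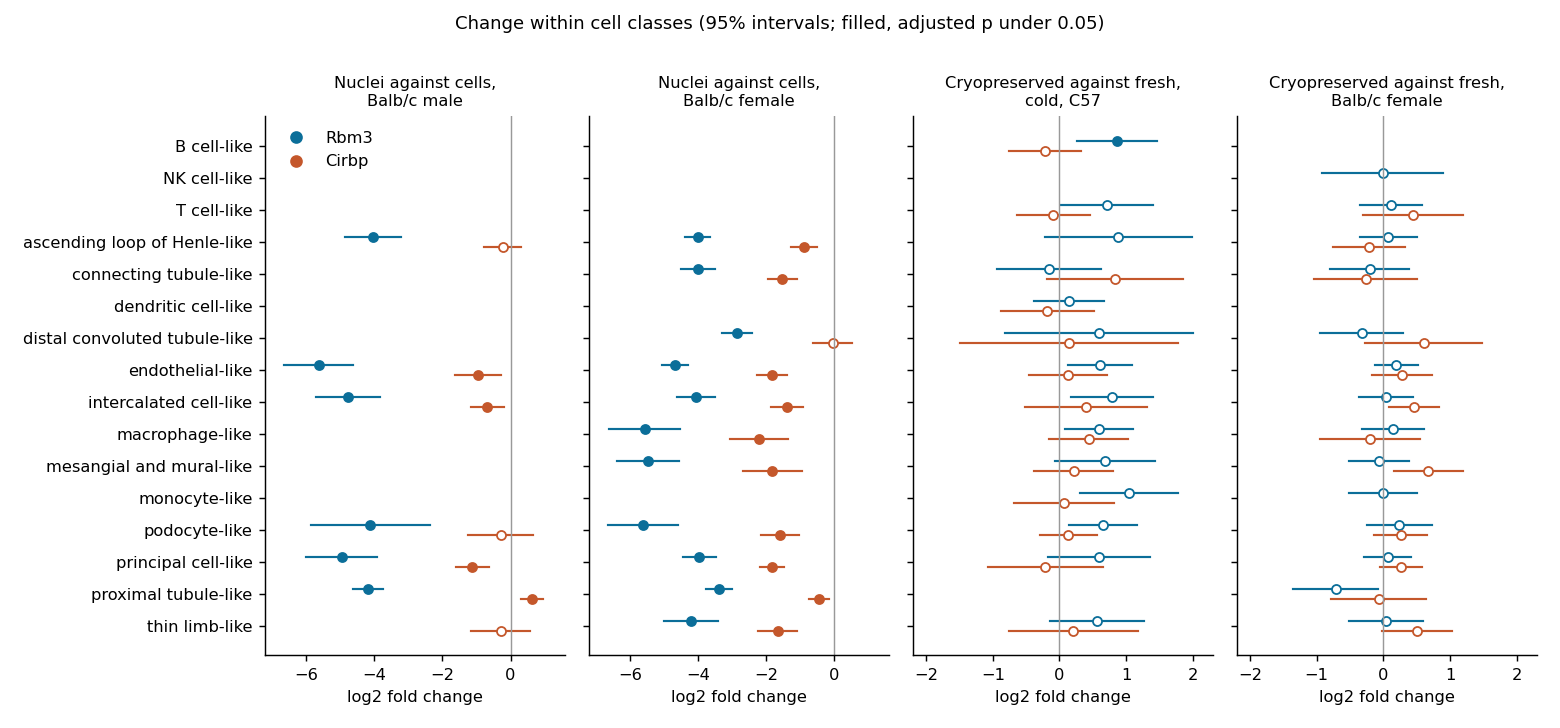
Log2 fold changes (x axes) with 95% intervals of Rbm3 and Cirbp within cell classes (y axis) for nuclei against cells in Balb/c male and female kidney and for cryopreserved against fresh cold-dissociated cells in C57BL/6J and Balb/c female kidney; filled points have an adjusted p under 0.05, and the nuclei and storage panels differ in x scale. Rbm3 lies at -2.85 or below in every class of nuclei, and most storage intervals cross 0.

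Between warm and cold dissociation the classes gave 1 call among all those tested. In fresh cells Cirbp was higher after warm dissociation in proximal tubule-like barcodes at 0.61 (0.23 to 1.00, adjusted p = 0.047), 76.2 against 52.2 CPM, and positive in 5 of 12 classes. The proximal tubule-like barcodes were led by different clusters, cluster 6 with 16.9% of the warm and cluster 3 with 21.8% of the cold ones, and the call was lost without cold library 2 or 3 or any 1 of the warm libraries. Rbm3 was positive in 10 of 13 classes (median 0.40), edgeR called 0 and 3 had an unadjusted p under 0.05, where 4.47% of 32146 class tests were called. In cryopreserved cells the medians over 10 classes were 0.21 for Rbm3 and 0.31 for Cirbp, with 0 called, 1 unadjusted p under 0.05 for each and 6.26% of 20841 tests called. In methanol-fixed cells Rbm3 was positive in 6 of 7 classes (median 0.27, 0 called, 3 at an unadjusted p under 0.05) and Cirbp in 8 of 8 (median 0.27, 0 called, 0 at an unadjusted p under 0.05), with 2.91% of 16516 tests called. For methanol against fresh cells the medians were -0.06 and 0.01 after cold and -0.19 and 0.37 after warm dissociation for Rbm3 and Cirbp, beside 20.3% of 34783 and 11.3% of 20232 tests called.

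Put in order over the C57BL/6J 10x groups, Rbm3 ran from cold cryopreserved (412) to warm cryopreserved (377), warm fresh (165), cold fresh (154), warm methanol (143) and cold methanol (138) CPM. The step from warm cryopreserved to warm fresh was the only one between neighbours that was called. For Cirbp the order was cold cryopreserved (258), warm cryopreserved (250), cold methanol (131), cold fresh (125), warm methanol (120) and warm fresh (106). No step between neighbours was called for it, the largest being that from warm cryopreserved to cold methanol at 0.64 log2 units (adjusted p = 0.0545). In the Balb/c female 10x groups Cirbp ran from cryopreserved cells (155) to sucrose nuclei (77.2), fresh cells (74.0), 3x500g (51.4) and 1x2000g nuclei (50.2), and the fit put sucrose nuclei below fresh cells by 0.41 log2 units (adjusted p = 0.0267), opposite to the order of the means.

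Over the 18 C57BL/6J cell libraries, Pearson's r of log2 values was highest with Rbm3, among 4878 genes, for Zfos1 (0.975), the interleukin receptor subunit Il2rg (0.961), the translation factor Eif3f (0.944), the ribosomal protein Rpl3 (0.944) and Dnttip2 (0.943). For Cirbp it was highest for the Notch target Hes1 (0.876), Lmcd1 (0.862), Rbm3 itself (0.861), Tmem55b (0.856) and the B cell factor Ebf1 (0.851). Cirbp ranked 200 among the genes most like Rbm3. These libraries share kidneys, storage groups and cell makeup, so the values are descriptions. Within groups, after subtraction of the group means, r of Rbm3 with Cirbp was 0.844. For the other genes named here it was 0.674 to 0.839 with Rbm3 and 0.806 to 0.922 with Cirbp.

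The other temperature-related genes are given by list. All list values are from whole libraries, and the part of the cell makeup in them was not tested. SR proteins, CLK kinases and partners are splicing regulators, of which the CLK kinases act as body temperature sensors. In warm bulk suspensions 5 of 17 were called higher, beside 5.42% of all genes, led by Clk1 (0.73) and Tra2b (0.37), with a median of 0.30 beside -0.01 over all genes. Fresh cells gave 2 higher (Tra2b at 0.53, Clk1 at 0.51) and 2 lower (Clk2 at -0.84, Srsf1 at -0.44) of 17 after warm dissociation, beside 7.86% and 7.07% of all genes, and the stored cells 1 each, Tra2b at 0.69 in cryopreserved and Clk1 at 0.83 in methanol-fixed cells, beside 4% and 1.15% of all genes higher. Intact kidney held less of 8 of 17 than suspensions, beside 7.91% of all genes, Clk1 measuring 104 ± 1.78 against 150 ± 18.4 CPM (-0.51, adjusted p = 0.00192).

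With cryopreservation 8, 11 and 10 of the 17 splicing regulators were called higher in cold C57BL/6J, warm C57BL/6J and Balb/c female cells, where 21.8%, 25.8% and 28.9% of all genes were, and 1, 1 and 0 were called lower, beside 28.9%, 33.9% and 29.1%. Tra2b rose by 1.71 and 1.83 in the C57BL/6J cells and Tra2a by 1.11, 1.53 and 0.88. The list's medians were 0.37, 0.53 and 0.32, beside -0.13, -0.15 and 0.02 over all genes. With methanol 9 of 17 were called lower after either dissociation, beside 13.6% (cold) and 9.77% (warm) of all genes, and 1 was called higher in each, beside 14.3% and 7.53%, Tra2a by -1.40 and -1.47. In nuclei 12 of 17 (male) and 10 of 17 (female) were called higher than in cells and 2 and 4 lower, beside 53.6% and 43.8% of all genes higher and 27.6% and 41% lower, with medians of 0.86 and 0.59 beside 0.84 and 0.10, while Srsf9 fell by 3.11 and 4.16 log2 units.

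Of the 12 related proteins with RNA recognition motifs, which include the hnRNPs that package nascent RNA, 5 were called in intact kidney against suspensions, each lower beside 7.91% of all genes (Rbmx at -0.35), and 1 in fresh warm against cold cells, the stress granule protein Tia1 at -0.47, beside 7.07% of all genes called lower. With cryopreservation 3, 6 and 4 of the 12 were called higher in the 3 suspension types, beside 21.8%, 25.8% and 28.9% of all genes, and 1 in each was called lower, beside 28.9%, 33.9% and 29.1%, with Hnrnpa1 at 0.85, 1.00 and 0.59. In nuclei 7 and 8 of 12 were lower, beside 27.6% and 41% of all genes, and 3 and 3 higher than in cells, beside 53.6% and 43.8%, with medians of -0.86 and -1.09, and Hnrnpa1 went from 126 ± 2.58 CPM in male cells to 8.74 ± 0.846 in nuclei, a fall of 4.08 log2 units. Rbm3, outside this list, had a log2 fold change of -4.62 in the same comparison.

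Of the cold shock domain proteins, 5 to 7 of 8 were measured. Ybx1, the abundant Y-box protein that packages mRNA, was called higher after warm dissociation in fresh (0.38) and methanol-fixed cells (0.47), lower with cryopreservation (-0.92, -1.20 and -0.80) and lower in nuclei (-3.23 and -4.45). It was the 1 member of 5 called lower with cryopreservation in each suspension type, while 1, 3 and 1 were called higher, beside 28.9%, 33.9% and 29.1% of all genes lower and 21.8%, 25.8% and 28.9% higher. Those higher were Ybx3 at 0.80 in cold C57BL/6J cells, Ybx2 (1.79) and Ybx3 (1.01) among those in warm C57BL/6J cells and Ybx2 at 0.94 in Balb/c female cells. In nuclei 4 of 6 members were called lower and 1 higher in both experiments, beside 27.6% (male) and 41% (female) of all genes lower and 53.6% and 43.8% higher, with medians of -1.22 and -1.59.

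Of 6 reported regulators and RNA targets of the 2 genes, Trpv4 (a heat-gated channel), Sp1, Clock, Rtn3, Txn1 and Rpa2, fresh warm cells had Txn1 (thioredoxin) higher at 0.51 and the circadian regulator Clock lower at -0.51, beside 7.86% of all genes higher and 7.07% lower. With cryopreservation after cold dissociation 3 of 6 were lower, beside 28.9% of all genes, Trpv4 at -1.20, Txn1 at -0.83 and the RBM3 target Rtn3 at -0.39. After warm dissociation 1 was higher and 3 were lower, beside 25.8% and 33.9% of all genes, and in Balb/c female cells 1 was higher and 2 were lower, beside 28.9% and 29.1%. In nuclei 4 of 6 were higher in both experiments, beside 53.6% (male) and 43.8% (female) of all genes, 1 (male) and 2 (female) were lower, beside 27.6% and 41%, and Txn1 fell by 2.85 and 5.20 log2 units.

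Heat shock chaperones moved with storage and nuclei as well. With cryopreservation 7 of 17 were called higher and 6 lower in both C57BL/6J suspensions, where 21.8% and 25.8% of all genes were higher and 28.9% and 33.9% lower, with Hspa1a going from 10.1 ± 0.900 to 2133 ± 733 CPM in cold-dissociated cells (7.57, adjusted p = 8.34e-06), and 4 were higher and 7 lower in Balb/c female cells, beside 28.9% and 29.1% of all genes, where the mitochondrial Hspe1 and Hspd1 fell by 1.85 and 1.68 log2 units and Hspa1a rose by 1.25. Nuclei held less of 13 and 15 of 17 than cells, beside 27.6% and 41% of all genes, with medians of -2.42 and -3.19. In 1x2000g against 3x500g nuclei 9 of 17 were called, each higher, where 19.5% of all genes were. The library sums of Rbm3 and Cirbp rose with cryopreservation in the same libraries in which that of Hspa1a rose. The cell makeup of these libraries changed too, and a link between the genes was not tested.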

How the data were processed

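The authors deposited raw counts for each library, as tables of UMI counts per barcode for 10x and of read counts per gene for bulk RNA-seq. Per the methods, 10x reads were processed with Cell Ranger 2.1.1, over exons for cells and over introns and exons for nuclei, and bulk reads were trimmed with Trim Galore, mapped to GRCm38 with STAR 2.6.1a and counted with featureCounts. Whether counting used strand is not given in the sources used here. The filters on barcodes were the authors'. Tables list different genes between groups, so that 10x levels were set over the 11261 genes listed in all of them. Levels without proximal tubule-like and unnamed barcodes were instead set over all genes listed. The Balb/c female cryopreserved tables list no hemoglobin genes.

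UMI counts were summed over the barcodes of each library, genes were filtered with filterByExpr, and pairs of groups were compared by edgeR 4.0.16 (R 4.3.3) with TMM scaling, the quasi-likelihood test and Benjamini-Hochberg adjustment over all genes tested. Intervals are at 95%. Clustering used 2000 variable genes, 30 principal components, 20 neighbours and the Leiden method (leidenalg 0.10.2) at resolution 2. A cluster was named with at least 3 markers detected, and a class sum needed 10 barcodes per library in at least 2 libraries per group. Doublets were not called, and barcodes above the percentile 95 of UMIs were left out as an alternative. Other alternatives were DESeq2 1.42.0, the exact test, RLE or no scaling factor, no filter, each library left out, a block and, chosen after seeing the data, the barcodes without proximal tubule-like and unnamed clusters. The code was tested on simulated data.

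The genes, lists and rules were chosen with earlier results of these data known. Beside Rbm3 and Cirbp, up to 4 called members with the largest change were named per list and comparison, with Hspa1a and Hspa8, and the 5 genes of highest Pearson r of log2(CPM + 1) among those with a mean of at least 20. Fresh, cryopreserved and methanol-fixed C57BL/6J libraries with the same number in the barcode prefix are aliquots of 1 suspension, which pairs the storage comparisons, and the block changed no call of either gene in them. Deviations of same-numbered C57BL/6J libraries from the group means correlated at 0.237, 0.235 and 0.247 for methanol against fresh after cold and 0.109, 0.195 and 0.089 after warm dissociation, and at -0.016 to 0.082 for cryopreserved against fresh. The labels tie no Balb/c female cryopreserved library to a fresh one, so that no block could be fitted there. Warm and cold libraries share only a number.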

Additional observations from a re-analysis of the deposited data

Results flagged for a closer look

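The nuclei against cells change of Cirbp differed between the Balb/c experiments, with a female minus male difference of -0.88 log2 units (95% interval -1.37 to -0.38, adjusted p = 0.00582 by edgeR's quasi-likelihood test). Cirbp changed by -1.01 in the female and -0.25 in the male comparison, and the median of all genes by 0.10 and 0.84. The same difference over all genes had a median of -0.75, so that the value of Cirbp is close to that of the median gene. The difference drew attention because the interaction was tested and passed the threshold, and it did not pass with RLE or no scaling factor or without any 1 of the nuclei libraries. Within proximal tubule-like barcodes the same difference was -1.14 (-1.58 to -0.71, adjusted p = 0.00017), from a change of -0.44 in the female and 0.63 in the male experiment, beside a median difference of -0.58 over all genes. Sex, age, chemistry and the time of the experiment differed between these experiments and cannot be told apart.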

How the results depend on the processing

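Rbm3 kept its direction and its side of the threshold in the nuclei against cells comparisons of both sexes and in cryopreserved against fresh C57BL/6J cells under every alternative run, and so did Cirbp in Balb/c female nuclei against cells, in sucrose nuclei against both others and in cryopreserved against fresh warm C57BL/6J and Balb/c female cells. In all, 581 of the recomputed values kept direction and call, 42 changed sign without passing the threshold, 19 lost and 14 gained a call, and 30 counts of classes moved. The cause was not tested for any of them.

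Without proximal tubule-like and unnamed barcodes Cirbp in cryopreserved against fresh cold C57BL/6J cells was 0.34 (adjusted p = 0.345). Rbm3 in cryopreserved against fresh Balb/c female cells was 0.40 (adjusted p = 0.079), and Cirbp in cryopreserved warm against cold cells 0.017. DESeq2 called Cirbp in Balb/c male nuclei at -0.32 (adjusted p = 0.0391). Cirbp in methanol-fixed warm against cold cells turned to -0.030 with DESeq2, -0.020 with the exact test, -0.038 with no scaling factor and -0.0094 without barcodes of the highest UMIs. Rbm3 in methanol-fixed against fresh cold cells turned to 0.021 with no scaling factor and 0.032 without those barcodes. The fresh and cryopreserved difference of Cirbp was -0.011 with no scaling factor. The female minus male difference was 0.97 (RLE) and 0.90 (no scaling factor) for Rbm3, both called, and -0.45 and -0.51 for Cirbp, neither called.

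With the replicate number as a block, Cirbp was 0.019 in cryopreserved and -0.030 in methanol-fixed warm against cold cells, and no call of either gene changed. The correlation of same-numbered warm and cold libraries was 0.18, 0.16 and -0.01 in fresh cells, and the sources used here do not say that such a number marks 1 mouse. The block, chosen after seeing the data, took calls over all genes from 673 to 134 in cryopreserved and from 198 to 371 in methanol-fixed cells.

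Counts of classes called were 0 for Cirbp in fresh warm against cold cells at resolution 1. For cryopreserved against fresh cold cells Rbm3 had 0 with no scaling factor and 3 with no filter. For cryopreserved against fresh warm cells Rbm3 had 0 with no scaling factor and Cirbp 1 with no filter. Cirbp had 1 in methanol-fixed against fresh cells after either dissociation with no scaling factor, and Rbm3 had 1 in Balb/c female cryopreserved cells with no filter.

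Leaving out 1 library at a time kept the sign of Rbm3 warm against cold in bulk, fresh cells and cryopreserved cells. Its lowest and highest values were 0.054 and 0.15, 0.079 and 0.35, and -0.20 and -0.041, and none was called. Other lowest and highest values were these. For Cirbp they were -0.034 and 0.23 in warm against cold bulk, -0.27 and 0.043 in intact kidney, -0.26 and 0.057, -0.22 and 0.16, and -0.26 and 0.27 in fresh, cryopreserved and methanol-fixed warm against cold cells, 0.67 and 1.03 in cryopreserved against fresh cold cells, -0.088 and 0.45, and 0.10 and 0.44 in methanol-fixed against fresh cold and warm cells, -0.43 and -0.20 in male nuclei, and -0.14 and 0.082 in 1x2000g against 3x500g nuclei. For Rbm3 they were -0.26 and 0.040 in intact kidney, -0.022 and 0.28 in methanol-fixed warm against cold cells, -0.19 and 0.093, and -0.33 and 0.0005 in methanol-fixed against fresh cold and warm cells, 0.30 and 0.68 in cryopreserved against fresh Balb/c female cells, -0.31 and -0.17 in sucrose against 3x500g nuclei and -0.12 and 0.019 in sucrose against 1x2000g nuclei. Differences between changes ran from -0.18 to 0.24 for Cirbp with cryopreservation, from -0.26 to 0.066 for Rbm3 and -0.23 to 0.38 for Cirbp with methanol, and from 0.40 to 1.08 for Rbm3 and -0.98 to -0.29 for Cirbp between the sexes. Classes called ran from 0 to 1 for Cirbp in fresh warm against cold cells, 0 to 4 for Rbm3 in cryopreserved against fresh cold cells, 0 to 1 for Rbm3 and 0 to 2 for Cirbp in warm ones, 0 to 1 for each in methanol-fixed against fresh cold cells, 0 to 1 for Cirbp in Balb/c female cryopreserved cells and 2 to 5 for Cirbp in male nuclei.

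Calls over all genes moved by more than 1.5 times in some settings. They were 1912 with no filter beside 1224 in bulk warm against cold, 676 beside 1801 in fresh warm against cold without proximal tubule-like and unnamed barcodes, and 2366 beside 5780, 1619 beside 6441 and 3545 beside 6932 for the cold, warm and Balb/c female cryopreservation comparisons without those barcodes. DESeq2 and the exact test gave 1167 and 1423 beside 673 in cryopreserved and 551 and 523 beside 198 in methanol-fixed warm against cold cells. With 1 library left out they were at least 776 beside 1224 in bulk, 444 beside 1801 in fresh, 114 beside 673 in cryopreserved and between 68 and 911 beside 198 in methanol-fixed warm against cold cells, 1706 beside 3321 and 638 to 3448 beside 1873 in methanol-fixed against fresh cold and warm cells, 3550 beside 6082 in 1x2000g against 3x500g nuclei and 928 to 1278 beside 2290 in sucrose against 1x2000g nuclei.

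Depth limits the class values, since the smallest 10x library held 88 Rbm3 and 68 Cirbp UMIs over all its classes.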
